A study of Mus musculus with 10 samples.

Results

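Neutrophil state N4 comprised the cells that the authors assigned to cluster 4 of their neutrophil clustering, 937 of 9540 neutrophils among 44986 cells in all. The other neutrophils fell into state N1 with 2332 cells, N2 with 1624, N3 with 2121, N5 with 868 and N6 with 1658. The cells came from dissociated lung tumour nodules of mice in which KP lung tumour cells, given intravenously to syngeneic hosts, had formed tumours seen by MRI. All mice carried these tumours and were treated for 11 days with vehicle, with SHP099 (an inhibitor of the phosphatase SHP2, encoded by Ptpn11), with SX682 (an inhibitor of the chemokine receptors CXCR1 and CXCR2) or with SHP099+SX682, to compare the changes in the tumour microenvironment between drugs. Live cells were enriched on magnetic beads, and the cells of the 3 mice of each treatment were marked with hashtag antibodies, pooled and run together on the 10x 5-prime V(D)J platform. Treatment and pool therefore cannot be told apart in any comparison below, and n is 3 mice a treatment. The sources used here do not state the hosts' strain, sex or age, nor the genotype behind the name KP.

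N4 held 72, 91 and 37 cells in vehicle mice 1, 2 and 3, 108, 114 and 98 in the SHP099 mice, 67, 35 and 33 in the SX682 mice and 103, 158 and 21 in the SHP099+SX682 mice. The unique molecular identifiers (UMIs, counted transcripts) of these cells summed to between 33768 in SHP099+SX682 mouse 3 and 254473 in SHP099 mouse 2. No barcode was shared by mice of the same pool, and 39 N4 cells (4.16%) had a barcode sequence that occurred in more than 1 pool. Levels are given as CPM (UMIs of a gene scaled to a fixed total of the mouse's N4 UMIs), on unscaled totals where states are compared and after TMM scaling (edgeR's correction for library composition) where treatments are compared.

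Neutrophils store their antimicrobial proteins in granules that are filled in sequence while the cell matures in the bone marrow. The proteins of the secondary and tertiary granules, among them the cathelicidin Camp, the neutrophilic granule protein Ngp, lipocalin 2 (Lcn2) and the collagenase Mmp8, are made late in that sequence under the transcription factor C/EBPε, and their transcripts decline once the cell has left the marrow. Neutrophils in lung tumours of mice lie along a range from blood-like cells with Retnlg to tissue-adapted cells with Siglecf, and a transcript of the granule programme in tumour tissue marks cells at the younger end.

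The promoters of 5 genes on which the results turn are shown because their transcripts either set N4 apart from the other states (Ngp, Lcn2, Camp, Chil3) or fell with SHP099 within it in every fit that left out a mouse (Mmp8, Chil3). Each is the 250 bases before the gene's start, from RefSeq on GRCm38.p6, 5′ to 3′ on the gene's strand, and capitals mark the C/EBP-type motif TTNNGCAA on either strand, which was the only motif searched.
Ngp, chr9:110419558-110419807, plus strand: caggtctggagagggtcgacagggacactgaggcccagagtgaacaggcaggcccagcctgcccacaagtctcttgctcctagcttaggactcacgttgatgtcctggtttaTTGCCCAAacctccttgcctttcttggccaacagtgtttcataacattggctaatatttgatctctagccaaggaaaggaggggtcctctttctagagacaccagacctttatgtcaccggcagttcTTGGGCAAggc
Lcn2, chr2:32387740-32387989, minus strand: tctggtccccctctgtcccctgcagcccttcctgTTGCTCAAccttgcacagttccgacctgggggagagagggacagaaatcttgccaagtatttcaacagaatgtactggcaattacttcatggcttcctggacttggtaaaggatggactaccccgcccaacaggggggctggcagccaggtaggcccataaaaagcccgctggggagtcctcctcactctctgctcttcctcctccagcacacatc
Camp, chr9:109849457-109849706, minus strand: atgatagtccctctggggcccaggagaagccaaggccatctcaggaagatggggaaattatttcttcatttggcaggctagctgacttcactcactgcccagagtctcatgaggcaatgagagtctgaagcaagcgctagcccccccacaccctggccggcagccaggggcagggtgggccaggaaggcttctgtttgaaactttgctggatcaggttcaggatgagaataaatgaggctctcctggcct
Chil3, chr3:106167565-106167814, minus strand: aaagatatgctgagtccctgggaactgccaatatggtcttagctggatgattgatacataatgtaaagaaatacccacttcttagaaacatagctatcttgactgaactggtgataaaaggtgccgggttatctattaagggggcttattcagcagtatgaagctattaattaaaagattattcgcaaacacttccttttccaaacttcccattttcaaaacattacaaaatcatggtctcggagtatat
Mmp8, chr9:7558179-7558428, plus strand: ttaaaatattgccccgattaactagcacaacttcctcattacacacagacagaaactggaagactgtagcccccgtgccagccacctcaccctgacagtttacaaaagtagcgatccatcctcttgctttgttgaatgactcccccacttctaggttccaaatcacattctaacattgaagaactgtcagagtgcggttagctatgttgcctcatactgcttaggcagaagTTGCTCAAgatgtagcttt
These letters occur in the Ngp promoter at 138 and at 11 bases before the gene's start, in the Lcn2 promoter at 216 bases and in the Mmp8 promoter at 19 bases. The same letters occur in 9.56% of 32851 mouse promoters of this length. Of the 15 genes that stood highest in N4, 14 had a promoter sequence and 4 held the motif (Ngp, Lcn2, Stfa1 and Cstdc5). Stfa1 and Cstdc5 held the same match within near-identical sequence, so the 4 are not independent.

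The name neutrophil held for these cells. Summed over the neutrophil marker list, N4 stood at 126218 to 175685 CPM by mouse, against 58872 to 83926 CPM for means of the other states. Most of that sum was S100a8 and S100a9, at means of 59007 and 74025 CPM in N4, whereas Csf3r and Cxcr2 stood lower in N4 than in the other states, as given below. Markers of other cell types summed to far less, though some stood above their level in the other states. Macrophage markers summed to 181 to 1777 CPM by mouse in N4 (mean 669), against means of 347 to 651 CPM in the other states. T cell markers summed to 0 to 592 CPM (mean 148), against means of 7.23 to 58.3 CPM. B cell markers summed to 24.9 to 623 CPM, a wider range than the means of 65.3 to 268 CPM of the other states, within which their mean of 186 CPM lay. By treatment they summed to 38.9 to 221 CPM in vehicle mice, 27.5 to 117 in SHP099 mice, 144 to 623 in SX682 mice and 24.9 to 415 in SHP099+SX682 mice. Eosinophil markers stood at 0 to 13 CPM with Epx and Ccr3 at 0 UMIs. The 9 macrophage markers, all of them detected, summed to 363 to 696 CPM in vehicle mice, 181 to 285 in SHP099 mice, 623 to 1777 in SX682 mice and 256 to 1362 in SHP099+SX682 mice. Ly6g, the surface protein used to sort mouse neutrophils, had 2 UMIs in the whole of N4, so its transcript was not informative here. The primary granule genes of the earliest marrow precursors were near absent, with 1 UMI for Elane, the gene of neutrophil elastase, and 0 for Mpo, the gene of myeloperoxidase.

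Transcripts of secondary granule proteins stood higher in N4 than in any other state. The comparison with other states is a description without a test, because the clusters were made from the same cells and genes. Each state was averaged over the 12 mice, and the log2 ratio compares N4 with the mean of the other 5 states after adding 10 CPM to each. Of 3113 genes at 50 CPM or more in at least 1 state, 2.44% stood at a log2 ratio of 1 or more in N4 and 7.65% at -1 or less, with a median of -0.12. The list of granule and young neutrophil genes stood apart from that background: of 28 genes, 26 reached the level, 15 of them stood at 1 or more, 3 at -1 or less, and the median was 1.21.

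Ngp, whose product is stored in secondary granules (chr9:110419808-110423012, GRCm38), ranged in N4 from 32.2 CPM in SX682 mouse 3 to 2769 CPM in vehicle mouse 1 with a median of 585 CPM. Its mean was 1046 ± 906 CPM (SD, n = 12 mice) in N4 and 19.4 CPM over the other states, a log2 ratio of 5.17. Camp, the precursor of the antimicrobial cathelicidin peptide (chr9:109847377-109849456), ranged from 10.7 to 5700 CPM with a median of 209.7 CPM and a mean of 865 ± 1615 CPM against 10.3 CPM, a ratio of 5.43. The SD of Camp exceeded its mean, so its level in N4 was set by few mice. Lcn2, which binds bacterial siderophores (chr2:32384637-32387739), was even between mice: 2617 CPM at the lowest, 4333 at the median and 8707 at the highest, against a mean of 417 CPM in the other states and 1123 ± 494 CPM in N6, the state next highest for it. Ngp, Camp and Lcn2 were above the mean of the other states in 12 of 12 mice. For Camp in SX682 mouse 1 this rested on a lone cell, described below, without which Camp stood at 7.31 CPM there.

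Chil3, a chitinase-like lectin of maturing neutrophils and of macrophages (chr3:106147554-106167564), ranged from 791 to 6352 CPM in N4 with a median of 1593 CPM and a log2 ratio of 2.98. Lyz2, the lysozyme that cleaves bacterial cell walls (chr10:117277541-117282272), ranged from 4797 to 12324 CPM with a median of 6510 CPM, and its mean was 7021 ± 2033 CPM against 1009 CPM elsewhere, a ratio of 2.79. Both were above the other states in every mouse. Ctsc, the protease that activates granule serine proteases, stood at 317 ± 103 CPM with a ratio of 2.31. Cybb, the catalytic subunit of the NADPH oxidase, stood at 264 ± 77.6 CPM with a ratio of 2.29.

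Members of the stefin family, small inhibitors of cysteine proteases encoded together on chromosome 16, formed a second set among the 15 leading genes. Cstdc4 stood at 2293 ± 1008 CPM with a log2 ratio of 2.3, and Stfa1 at 351 ± 253 CPM with 3.29. Stfa2 followed at 269.6 ± 191 CPM with 3.98, Csta2 at 135 ± 72.4 CPM with 3.23 and Cstdc5 at 176 ± 275 CPM with 2.92. Related genes such as these may share reads, and the split of reads among them was not checked. The remaining leading genes were Car4 (a membrane carbonic anhydrase, 661 ± 281 CPM, ratio 2.53), Hsd11b1 (which regenerates active glucocorticoid, 176 ± 74.1 CPM, ratio 2.49) and Adamdec1 (a secreted metalloprotease, 172 ± 129 CPM, ratio 2.25).

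**Figure D1:**
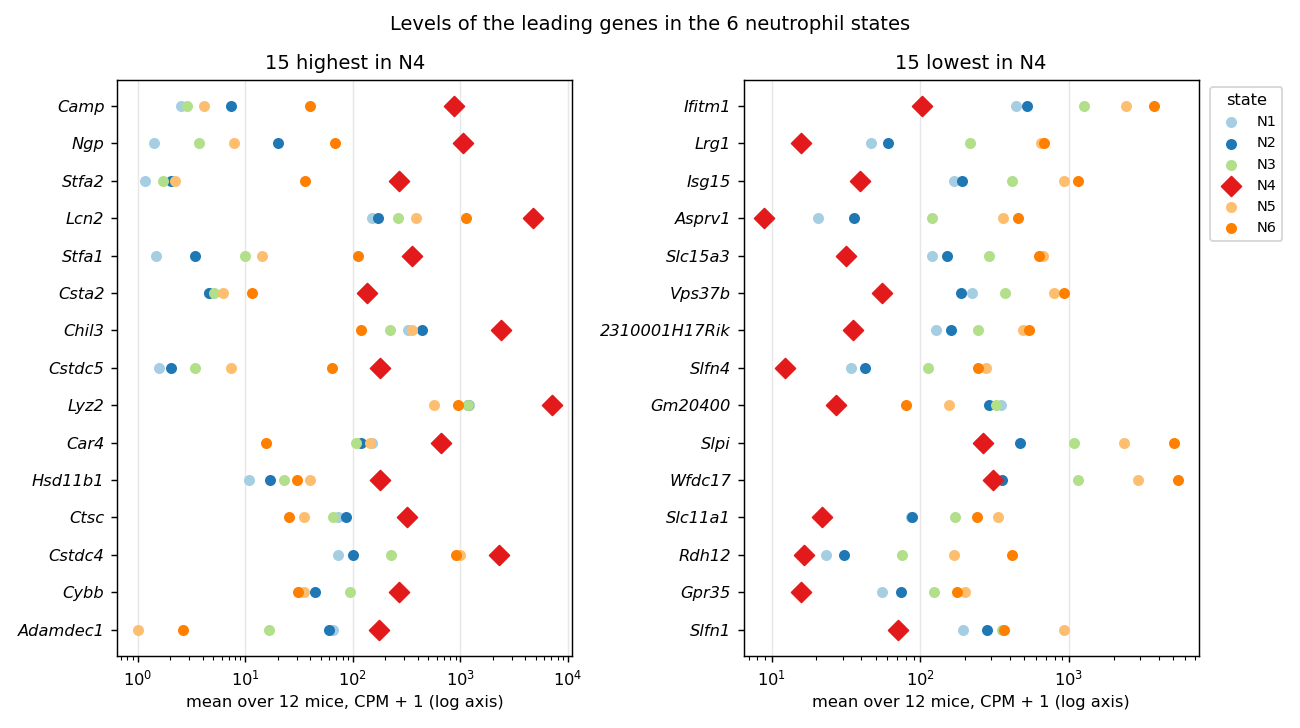
Mean CPM + 1 over the 12 mice (log axis) of the 15 genes that stood highest in N4, at left, and the 15 that stood lowest, at right, with 1 point for each of the 6 states and N4 as a red diamond. N4 lies to the right of every other state for the genes at left, such as Lcn2, and to the left for those at right, such as Ifitm1, except Slpi and Wfdc17, which stood slightly lower in N1 (253 and 305 CPM) than in N4.

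Some granule genes were also high in N6. S100a8 and S100a9, the subunits of calprotectin, made up 13.3% of N4's UMIs (10.6 to 16.3% by mouse), against 9.71% in N6 and 3.32 to 4.60% in the other 4 states. Retnlg, a resistin-like protein of blood neutrophils, stood at 5737 ± 2146 CPM in N4 and at 10420.4 ± 4059 CPM in N6, and at 151 ± 136 CPM in N2. Mmp8 stood at 133 CPM in N4 and 162 CPM in N6, so Retnlg and Mmp8 were highest in N6. Siglecf, the lectin that marks tissue-adapted tumour neutrophils, stood at 373 ± 92.7 CPM in N4, below N1 (483 CPM) and N2 (437 CPM) and above N6 (48.7 CPM). As a state, N4 thus held transcripts of both Retnlg and Siglecf, and their overlap over single cells is given below.

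Among the genes that stood lowest in N4 were interferon-induced genes and secreted inhibitors that were high in N6. Ifitm1, an interferon-induced restriction factor, ranged from 0 to 259.8 CPM in N4 with a median of 91.6 CPM, against a mean of 1669 CPM in the other states, a log2 ratio of -3.91. Isg15, the interferon-induced ubiquitin-like modifier, had a mean of 38.1 CPM against 567 CPM, a ratio of -3.59. Of 42 interferon response genes, 18 reached the level, 1 stood at 1 or more and 12 at -1 or less, with a median of -1.43, and Ifit1 and Ifit3 had 0 UMIs in N4. Slpi, an inhibitor of neutrophil elastase, stood at 264 ± 269.6 CPM against 1844 CPM (ratio -2.76), and Wfdc17 at 309.5 ± 393 CPM against 2027 CPM (ratio -2.67). Lrg1, a secreted glycoprotein of late granulocytes, stood at 14.8 ± 15.5 CPM, a ratio of -3.77.

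Some receptors stood lower in N4. Of 21 cytokine receptors that reached the level 0 stood at 1 or more and 3 at -1 or less (median -0.53), and of 11 chemoattractant receptors 1 and 2 did (median -0.41). Csf3r, the receptor for G-CSF, stood at a log2 ratio of -2.07, Cxcr4 (the marrow-homing receptor) at -1.91, Cxcr2 at -1.02 and Trem1 at -1.34. Of 18 neutrophil identity genes, 3 stood at 1 or more and 8 at -1 or less (median -0.65). Of 30 AP-1 and immediate early genes, which are switched on within minutes of a stimulus, 2 stood at 1 or more and 8 at -1 or less (median -0.82), with Egr1 at -1.90 and Fos at -0.43. The late tumour neutrophil list of 27 genes had 0 at 1 or more and 4 at -1 or less (median -0.28). Cytokine genes were mixed: Il1a stood at 1.56 and Ccl3 at 0.94, Il1b at -0.24 and Cxcl2 at 0.02. The 36 oxidative phosphorylation genes that reached the level had none beyond 1 in either direction.

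The transcripts that led N4 differed widely in how they were spread over its cells. With each cell thinned to 500 UMIs, Lyz2 was seen in 83.7% of N4 cells against 28.3% of other neutrophils, Lcn2 in 53.5% against 11.3% and Chil3 in 37.5% against 7.23%. T cells, which should lack these genes, had a UMI of Lyz2 in 10.1%, of Chil3 in 1.69% and of Lcn2 in 0.0913% of cells. Ngp was seen in 13.6% of N4 cells against 0.279% of other neutrophils, and Camp in 5.02% against 0.128%. As counted, 202 N4 cells (21.6%) held a UMI of Camp or Ngp, and 141 (15%) after thinning. The median depth as counted was 1772 UMIs in N4, 1031 in other neutrophils and 1526 in T cells.

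Camp rested on few cells. The 10 cells with most Camp held 84.8% of its UMIs in N4, against 33.9% for Ngp, 17.8% for Chil3, 13.7% for Lcn2 and 7.06% for Lyz2. A lone cell of SX682 mouse 1, with 8917 UMIs, held 830 of the Camp UMIs (48.4% of all in N4), beside 46 of Ngp and 70 of Ltf (lactoferrin, another secondary granule protein). Without that cell Camp in SX682 mouse 1 stood at 7.31 rather than 5700 CPM, so the highest Camp value among the mice belongs to that cell. Csta2, Stfa1 and Stfa2 were also concentrated, with 49.6%, 47.9% and 36% of their UMIs in 10 cells.

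**Figure D2:**
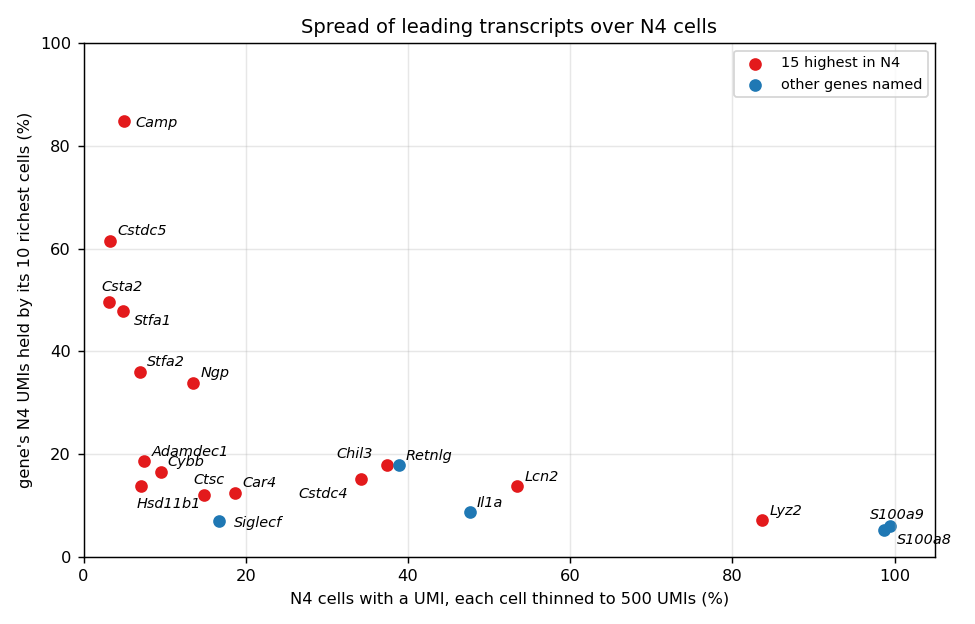
Each point is a gene: the x axis gives the percent of N4 cells with a UMI after thinning to 500 UMIs, and the y axis the percent of the gene's N4 UMIs held by its 10 richest cells. Camp sits at the upper left (5.02% of cells, 84.8% of UMIs) and Lyz2 at the lower right (83.7% and 7.06%).

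Across the 937 N4 cells Camp, Ngp, Lcn2, Chil3 and Retnlg correlated with each other, and Siglecf did not correlate with them. These are descriptions over cells that share libraries and differ in depth. After thinning, the Pearson correlation of log(UMIs + 1) was 0.47 between Camp and Ngp, 0.46 between Lcn2 and Retnlg, 0.41 between Ngp and Lcn2, 0.36 between Lcn2 and Chil3 and 0.17, the lowest among the 5 genes, between Camp and Chil3. Ltf correlated with Camp at 0.46 and with Ngp at 0.24, but with Lcn2 at 0.10, Retnlg at 0.13 and Chil3 at 0.05. Siglecf correlated with these 6 genes at -0.07 to 0.01. As counted, Retnlg and Siglecf were both seen in 204 cells, Retnlg alone in 248, Siglecf alone in 235 and neither in 250. After thinning to 500 UMIs these counts were 54, 310, 103 and 470, and T cells held a UMI of Retnlg in 0.274% and of Siglecf in 0.107% of cells.

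The states closest to N4 over all 3113 genes were N2 (Spearman correlation of mean levels 0.876), N1 (0.858) and N3 (0.851). N5 stood at 0.698 and N6 at 0.687, although N6 shared the high S100a8, S100a9 and Retnlg.

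N4 cells were the deepest or second deepest neutrophils in every mouse, deepest in 6 and second in 6. Their median of 1772 UMIs and 747 genes a cell compares with 1730 UMIs in N3, 1029.5 in N1, 976.5 in N2, 798 in N6 and 746 in N5. By mouse, the N4 median was 1.16 to 2.28 times that of the other neutrophils. Within N4, the median was 1491, 1761 and 1918 UMIs in vehicle mice, 2036, 2098.5 and 2252 in SHP099 mice, 1715, 2229 and 2624 in SX682 mice and 1329, 1279 and 1224 in SHP099+SX682 mice. The SHP099+SX682 mice lay below all other mice. This was not particular to N4: in N1 they stood at 795 to 894 UMIs against 968 or more in all other mice. They were also lowest in N2 and N5, but overlapped other mice in N3 and N6. The exact permutation test over the 4 treatments gave p = 0.005 (n = 3 mice each), and the smallest p it could give was 6.49e-05. Each treatment was a separate pool, so a difference in capture depth and a difference in RNA per cell cannot be told apart.

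The share of N4 among the neutrophils did not separate the treatments. It was 6.99, 20.3 and 14.2% in vehicle mice, 10.1, 10.2 and 15.4% in SHP099 mice, 9.77, 4.12 and 18.4% in SX682 mice and 10.5, 11.5 and 2.31% in SHP099+SX682 mice. All groups overlapped (exact permutation test over the 4 treatments, p = 0.647). The log2 change in share against vehicle was -0.20 ± 0.63 (SE) for SHP099, -0.45 ± 0.66 for SX682 and -0.74 ± 0.63 for SHP099+SX682, none of which passed (adjusted p = 0.754, 0.835 and 0.27).

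**Figure D3:**
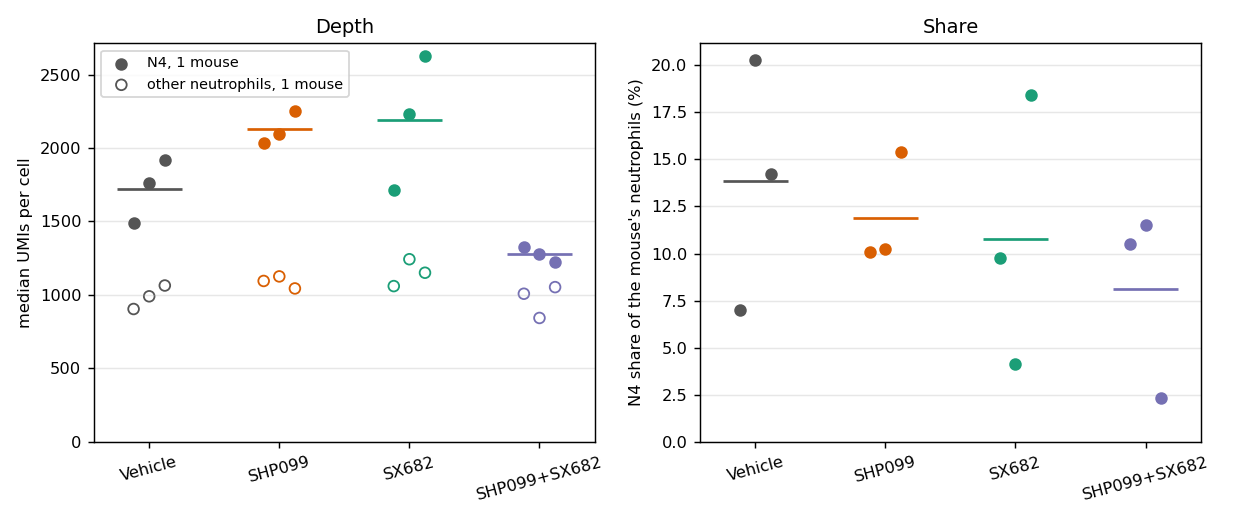
At left, median UMIs per cell for each mouse by treatment, in N4 (filled) and in the other neutrophils (open), and at right, the share of N4 among neutrophils in percent. Lines are means of 3 mice in N4. The SHP099+SX682 mice sit lowest in N4 depth, between 1224 and 1329 UMIs, and the shares of all treatments overlap.

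Treatment changes within N4 were tested on UMIs summed per mouse (edgeR, two-sided, Benjamini-Hochberg adjustment over 2222 genes, called below 0.05). SHP099 against vehicle gave the most calls, 33 higher (1.49% of genes tested) and 45 lower (2.03%), or 3.51% in all. The count rested on single mice: it was 18 without SHP099 mouse 2 or without vehicle mouse 2, 23 without vehicle mouse 1, 40 without SHP099 mouse 3 and 50 without vehicle mouse 3. In every one of the 12 fits that left out a mouse, 7 genes were called: Chil3, Hp, Ifitm2, Mmp8, Ndufb1-ps, Rpl41 and Rps29.

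Mmp8 and Chil3 were the granule genes that fell most with SHP099. Mmp8, the granule collagenase, stood at 291, 195 and 241 CPM in vehicle mice 1, 2 and 3 and at 41.6, 11.5 and 46.0 CPM in the SHP099 mice, with no overlap. It fell by 2.83 ± 0.45 on the log2 scale (SE, adjusted p = 0.00439), on 32, 35 and 18 UMIs against 10, 3 and 11. Chil3 stood at 6882, 3403 and 5687 CPM in vehicle mice and at 1120.3, 1014 and 1622 CPM in SHP099 mice. The groups were apart, and Chil3 fell by 2.07 ± 0.37 (adjusted p = 0.00713). Chil3 also fell in the other neutrophils, by 3.09 on the log2 scale. Hp, the haptoglobin stored in granules that binds free haemoglobin, stood at 2064, 1239.9 and 1891 CPM against 733, 517 and 539 CPM and fell by 1.52 ± 0.23 (adjusted p = 0.00385). Of 28 granule and young neutrophil genes 22 were tested. Of these, 0 were called higher and 3 lower (Mmp8, Chil3 and Pglyrp1, a peptidoglycan-binding protein). Called or not, 8 changes were above 0 and 14 below, with a median log2 change of -0.23 against -0.01 over all genes tested. S100a8 and S100a9 together made up 12.1 to 14.9% of N4 UMIs in vehicle mice and 14.7 to 16.3% in SHP099 mice. Pglyrp1 stood at 1291, 945 and 1033 CPM against 658, 655 and 719 CPM, a change of -0.67, and lost its call in 8 of the 12 leave-out fits.

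Immediate early genes moved both ways. Of 27 tested, 3 rose (Jund, Egr3 and Nr4a3) and 4 fell (Fos, Zfp36, Btg2 and Klf2), with a median of -0.02. Fos, a subunit of the AP-1 transcription factor, stood at 2109, 2046 and 2307 CPM in vehicle mice and 1287, 926 and 903 CPM in SHP099 mice. It fell by 1.04 ± 0.19 (adjusted p = 0.00713), with an adjusted p of 0.0527 without SHP099 mouse 2. Zfp36, which destabilises cytokine mRNAs, stood at 1509, 884 and 1744 CPM against 654, 521 and 585 CPM and fell by 1.20 ± 0.24 (adjusted p = 0.00871), a call lost without SHP099 mouse 2 or vehicle mouse 1. Klf2, a zinc finger factor of quiescent leukocytes, changed by -0.78 and lost its call in all 12 leave-out fits. Nfkbia, the inhibitor that NF-κB induces, stood at 2136, 1640.2 and 1972 CPM against 1033, 612 and 903 CPM and fell by 1.16, also lost without SHP099 mouse 2 or vehicle mouse 1.

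Jund, another AP-1 subunit, stood at 473, 450.4 and 215 CPM in vehicle mice and 812, 769 and 811 CPM in SHP099 mice. It rose by 1.03 ± 0.22 (adjusted p = 0.011), a call lost without vehicle mouse 3. Nr4a3, an orphan nuclear receptor induced early after stimulation, stood at 182, 106 and 148 CPM against 412, 229.7 and 293 CPM and rose by 1.15 ± 0.26 (adjusted p = 0.0185), lost without SHP099 mouse 1 or vehicle mouse 2. Egr3 had 1, 3 and 0 UMIs in vehicle mice and 41, 13 and 14 in SHP099 mice, and its call was lost in 4 leave-out fits, those without SHP099 mouse 1 or any vehicle mouse. The groups did not overlap for any of these genes.

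Other called genes were receptors, metabolic genes and markers shared with macrophages. Il1r2, the decoy receptor for IL-1, stood at 2891, 2786 and 3782 CPM in vehicle mice and 1841, 1959.7 and 1756 CPM in SHP099 mice, a change of -0.75 that 6 leave-out fits lost. Capg, an actin-capping protein, stood at 218, 183 and 215 CPM against 87.5, 57.4 and 50.2 CPM and fell by 1.62 ± 0.32, lost without SHP099 mouse 2. Hk2 (hexokinase 2, 1.40), Odc1 (ornithine decarboxylase, 1.44) and Notch1 (1.24) rose, with 5, 5 and 3 leave-out fits losing the call. Ifitm2, a restriction factor related to Ifitm1, stood at 691, 478 and 738 CPM against 254, 256 and 66.9 CPM and fell by 1.67 ± 0.33 (adjusted p = 0.00798). In the T cells of the same mice Ifitm2 fell by 1.77. Its neighbour Ifitm1 changed by -2.45 ± 0.70 and did not pass (adjusted p = 0.0535). The 9 interferon response genes tested had 0 calls and a median of -0.71.

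Apoe, an apolipoprotein and macrophage marker, stood at 264, 478 and 174 CPM in vehicle N4 and 91.6, 38.3 and 29.3 CPM in SHP099 N4, a change of -2.60, and changed by -2.63 in T cells. Cd74, the MHC class II invariant chain, changed by -2.05 although its groups overlapped (409, 895 and 188 CPM against 208, 122 and 50.2 CPM). With 21 cells drawn per mouse the Cd74 change was 0.47 and did not pass. The summed macrophage markers given above also stood lower in SHP099 mice than in vehicle mice, and their part in these changes was not tested. With only the 602 cells that held at most 1 UMI of other cell types' markers, 45 genes were called. In that fit Mmp8 changed by -2.81, Chil3 by -2.10 and Hp by -1.39, all called, and Ifitm2 by -1.30 with an adjusted p of 0.084.

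**Figure D4:**
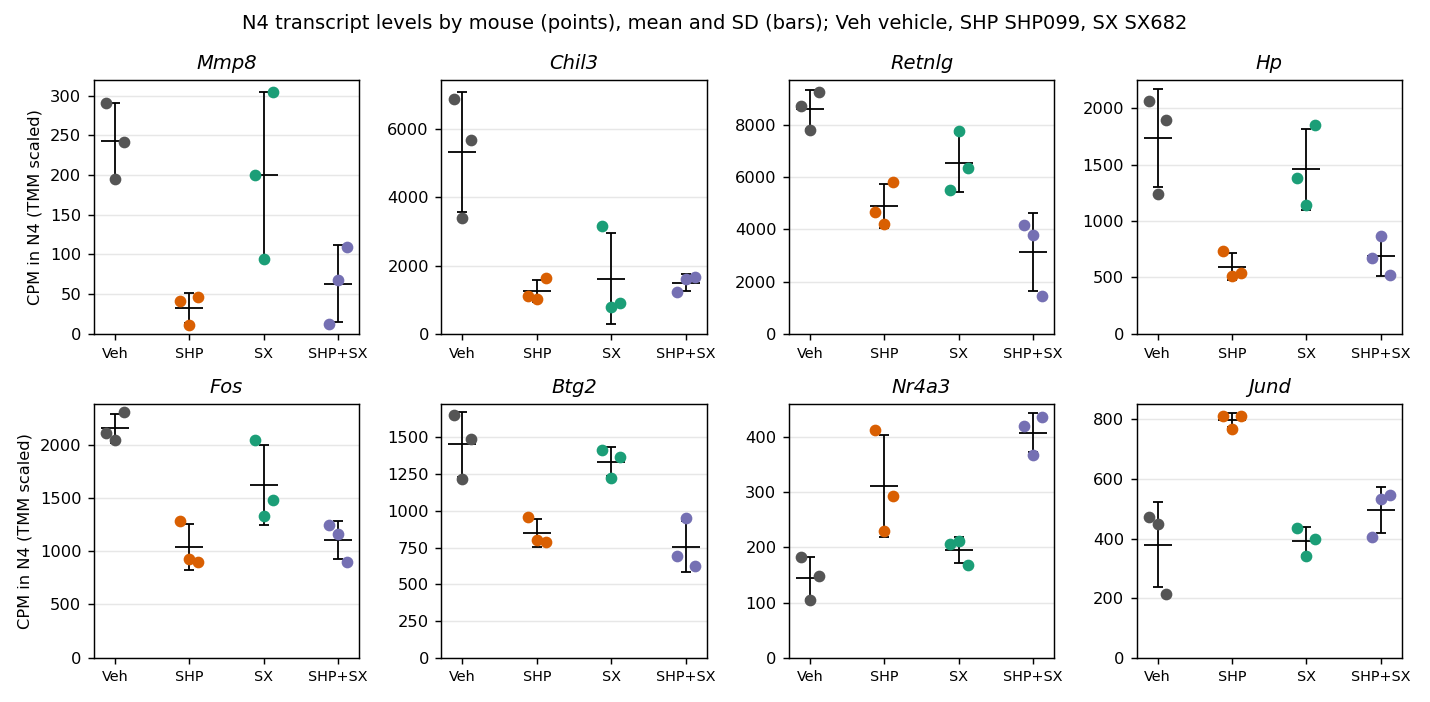
TMM-scaled CPM in N4 for 8 genes, with 1 point for each mouse, grouped by treatment, and bars for the mean and SD of 3 mice. The SHP099 mice lie below the vehicle mice for Mmp8, Chil3, Hp and Fos and above them for Nr4a3 and Jund.

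Ribosomal protein genes made up 9 of the 33 genes that rose with SHP099. Of 79 tested, 9 were called higher and 0 lower. Called or not, 49 changes were above 0 and 30 below, with a median of 0.10. Rps29, of the small subunit, stood at 436, 411 and 469 CPM in vehicle mice, 812, 849.7 and 828 in SHP099 mice, 228, 259 and 263 in SX682 mice and 746, 804 and 818 in SHP099+SX682 mice. It rose by 0.94 ± 0.17 with SHP099 (adjusted p = 0.00713). The mice of each pool lay close together, and the 2 pools with SHP099 lay above the others. In T cells of the same mice Rps29 (unscaled CPM) also stood lower with vehicle than with SHP099: 1344, 1257 and 1019 CPM in vehicle mice and 2790, 2406 and 2696 CPM in SHP099 mice. Over the 9 genes the change was 0.71 to 1.11 in N4, 0.43 to 1.09 in T cells, where all 9 were called, and 0.10 to 0.86 in the other neutrophils. A change that spans cell types within a pool cannot be told apart from a difference between captures.

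**Figure D5:**
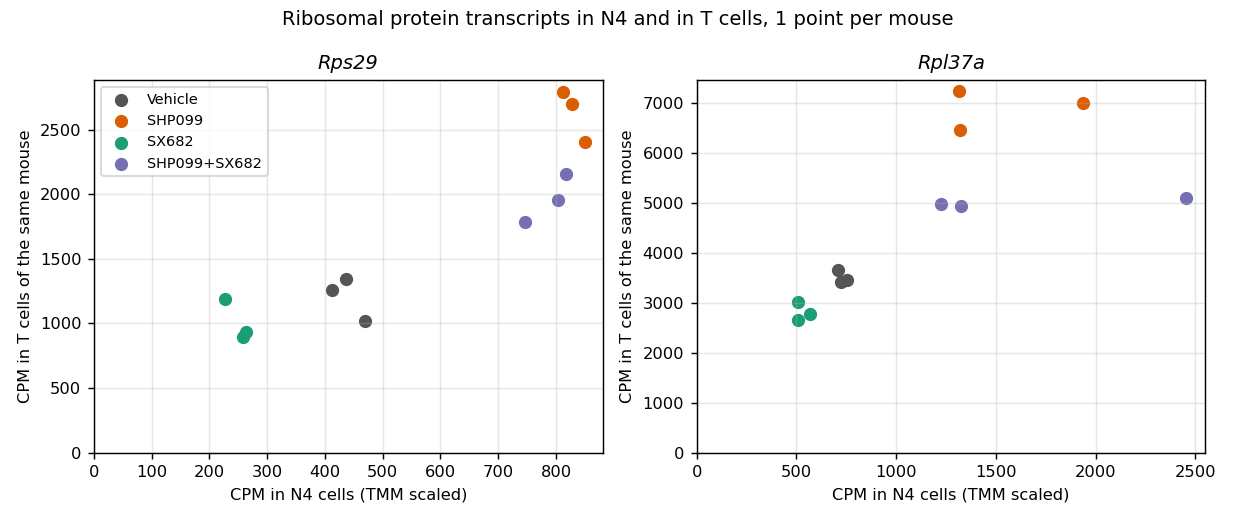
Rps29 and Rpl37a with 1 point for each mouse, coloured by treatment: TMM-scaled CPM in N4 on the x axis and CPM in T cells of the same mouse on the y axis. For Rps29 the SHP099 mice lie above the vehicle mice in both cell types, from 812 to 849.7 CPM in N4 and from 2406 to 2790 CPM in T cells.

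SX682 against vehicle gave 1 call within N4 (0.045% of genes tested), with 142 genes at an unadjusted p below 0.05 and 0 calls by DESeq2. The gene was Scgb1a1, the secretoglobin of airway club cells, which is no neutrophil gene. It had 0, 1 and 0 UMIs in vehicle N4, 22, 11 and 6 in SX682 N4, 0 in each SHP099 mouse and 11, 31 and 1 in SHP099+SX682 N4. The ratio of SX682 to vehicle was 46.0 (exact 95% interval 7.78 to 1862, counting error only), and the call (adjusted p = 0.0356) was lost in 7 leave-out fits, among them those without any 1 vehicle mouse. In T cells Scgb1a1 stood at 126, 90.2 and 100.2 CPM in SX682 mice and at 3.92, 16.4 and 4.78 CPM in vehicle mice. It stood there at 82.3, 174.9 and 57.4 CPM in SHP099+SX682 mice and at 5.19, 4.40 and 203.6 CPM in SHP099 mice 1, 2 and 3. SHP099 mouse 3 was thus the highest of all mice in T cells, with 0 UMIs in its N4. The part of free RNA was not tested. Without vehicle mouse 2, vehicle mouse 3, SHP099+SX682 mouse 1 or SHP099+SX682 mouse 2 no gene was called, and 4 were called without SX682 mouse 3 and 2 without SX682 mouse 1.

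Genes that changed with SHP099 took varied levels in SX682 mice. Mmp8 ranged from 94.1 to 305 CPM in SX682 mice and Hp stood at 1379, 1141 and 1851 CPM, both overlapping vehicle. Chil3 was at 3152, 788 and 894 CPM, with mouse 1 just below the lowest vehicle mouse and the other 2 mice below all SHP099 mice. Cd74 was at 938, 1306 and 1799 CPM, above all vehicle mice, with a log2 change of 1.34 that did not pass (adjusted p = 0.327). The 22 granule genes tested had 0 calls and a median of -0.18.

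SHP099+SX682 against vehicle, which shares the vehicle mice with the preceding comparisons, gave 7 higher (0.315% of genes tested) and 11 lower genes (0.495%), or 0.81% in all. None was called in every leave-out fit: 0 were called without vehicle mouse 1 or vehicle mouse 3, 3 without vehicle mouse 2, 4 without SHP099+SX682 mouse 1 or mouse 3, 9 without SHP099+SX682 mouse 2 and 8 without SHP099 mouse 2. Of 22 granule genes 0 rose and 4 fell (Retnlg, Mmp8, Chil3 and Pglyrp1), with a median of -0.40 against -0.01 over all genes. Retnlg stood at 8745, 7806 and 9255 CPM in vehicle mice and 4181, 3793 and 1445 CPM in SHP099+SX682 mice. The groups were apart, and it fell by 1.40 ± 0.25 (adjusted p = 0.0204), a call lost without vehicle mouse 1 or vehicle mouse 3. SHP099 mice stood at 4673, 4195 and 5832 CPM and SX682 mice at 5531, 7778 and 6363 CPM.

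Chil3, Mmp8 and Hp, which fell with SHP099, also fell with the combination. Chil3 stood at 1215, 1613 and 1663 CPM and fell by 1.82 ± 0.38 (adjusted p = 0.0328, lost in 5 leave-out fits). Mmp8 stood at 12.3, 67.7 and 109 CPM and fell by 2.20 ± 0.48 (adjusted p = 0.0328, lost in 6). Hp stood at 672, 868 and 518 CPM and fell by 1.25 ± 0.24 (adjusted p = 0.0251, lost in 4). For each of these genes the SHP099+SX682 mice lay below all vehicle mice.

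Among early genes, Nr4a3 stood at 419, 368 and 436 CPM with SHP099+SX682 and rose by 1.52 ± 0.27 (adjusted p = 0.0204, lost without SHP099+SX682 mouse 1 or any vehicle mouse). Fos at 1246, 1164 and 899.6 CPM fell by 0.91, and Btg2, an antiproliferative early gene, at 691, 952 and 627 CPM fell by 0.87 from 1654, 1218 and 1489 CPM. Their calls were lost in 7 and 6 leave-out fits. Mt1, a metal-binding metallothionein, stood at 499, 1269.9 and 736 CPM against 318, 317 and 215 CPM and rose by 1.58 ± 0.36, lost in 7. Id1, an inhibitor of helix-loop-helix factors, fell by 1.00. The ribosomal list had 4 rising and 0 falling of 79 genes (median 0.20), and those 4 changed by 0.46 to 0.64 in T cells.

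Between the drugs, SHP099+SX682 and SHP099 differed in 2 genes of 2222 (0.09%), 1 in each direction (0.045%), with 152 at an unadjusted p below 0.05. Scgb1a1, whose T cell levels are given above, was the higher of them and the 1 gene called in every leave-out fit. Hspa1a, an inducible heat shock chaperone that also responds to tissue dissociation, had 18, 66 and 134 UMIs in SHP099 mice and 3, 2 and 0 in SHP099+SX682 mice, a change of -4.59 ± 0.89 (adjusted p = 0.0481, lost in 7 leave-out fits). The count of calls ranged from 1 to 9: it was 9 without SHP099+SX682 mouse 2, 7 without vehicle mouse 3, 5 without SX682 mouse 3, 4 without SX682 mouse 1, and 1 without SHP099 mouse 2, SHP099 mouse 3, SHP099+SX682 mouse 1 or vehicle mouse 1. Retnlg changed by -0.60 ± 0.25 between these groups and did not pass (adjusted p = 0.703).

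SHP099+SX682 against SX682 gave 34 higher (1.53%) and 13 lower genes (0.585%), or 2.12% in all. It was the more even comparison, with 30 calls at the fewest (without SHP099+SX682 mouse 3, SX682 mouse 1 or SX682 mouse 2) and 18 genes called in every leave-out fit. Trf, the iron carrier transferrin, stood at 366, 412 and 368 CPM in SX682 mice and 98.7, 84.7 and 81.8 CPM in SHP099+SX682 mice, and fell by 2.07 ± 0.25 (adjusted p = 7.55e-05). Vehicle mice stood between, at 209, 189 and 228 CPM. Tmsb10, a thymosin that binds actin monomers, stood at 945, 894 and 905 CPM against 2090.3, 1626 and 2126 CPM and rose by 1.08 ± 0.20 (adjusted p = 0.00371). Both held in every leave-out fit.

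Of 22 granule genes 0 rose and 3 fell (Retnlg, Mmp8 and Lyz2), with a median of -0.29 against -0.04 over all genes. Lyz2 stood at 8456, 7731 and 12075 CPM in SX682 mice and 4779, 6629 and 4416 CPM in SHP099+SX682 mice and fell by 0.82 ± 0.19 (adjusted p = 0.0263), lost without SHP099+SX682 mouse 1 or mouse 3 or SX682 mouse 3. Il1rn, the IL-1 receptor antagonist, stood at 1973, 1742 and 1409 CPM against 3065, 3268 and 2426 CPM and rose by 0.79 ± 0.17, lost in 4 leave-out fits. Mt1 rose by 2.03, lost without SHP099+SX682 mouse 2. Cox17, a copper chaperone of cytochrome oxidase, rose by 1.02 in N4 and by 1.09 in T cells. Of 79 ribosomal protein genes 18 rose and 0 fell, by 0.81 to 1.66 in N4 and 0.20 to 0.97 in T cells, where 16 of them were called.

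A further 2 of the higher genes are known from T and NK cells. Ccl5, a chemokine of those cells, had 1, 7 and 0 UMIs in SX682 N4 and 190, 42 and 63 in SHP099+SX682 N4, and Nkg7, a cytotoxic granule gene, rose by 2.56. The 7 T cell markers, all of them detected, summed to 94.9 to 592 CPM in N4 of the SHP099+SX682 mice and to 0 to 153 CPM in the SX682 mice, ranges that overlap. The 5 NK cell markers, all of them detected, summed to 0 to 368 CPM and to 0 to 21.5 CPM in the same groups, and the part of either list was not tested. Cd74 changed by -1.56 over all N4 cells and by 0.26 over the cells with few marker UMIs.

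A direct test asked whether a treatment's effect in N4 differed from its effect in all other neutrophils of the same mice (3856 genes, mouse as block, unscaled CPM given). It called 4 genes higher (0.104%) and 1 lower (0.0259%) for SHP099 (0.13% in all), 2 higher for SX682 (0.0519%) and 5 higher for SHP099+SX682 (0.13%). In the other neutrophils alone, where more cells were counted, 14.2% of 7252 genes were called for SHP099, 0.814% for SX682 and 6.85% for SHP099+SX682. Without SHP099 mouse 3 the first count was 1, without SHP099+SX682 mouse 3, vehicle mouse 1 or vehicle mouse 3 the second was 0, and without SHP099+SX682 mouse 1 or vehicle mouse 1 the last was 0. None of these genes held in every leave-out fit.

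Tmsb10 was called for both treatments with SHP099. In N4 it stood at 1141, 880 and 1231 CPM in vehicle mice and 955, 998 and 1301 CPM in SHP099 mice, which overlapped. In the other neutrophils it stood at 1249.8, 1167 and 1456 CPM against 506, 679 and 625 CPM, and the effects differed by 1.16 ± 0.19 on the log2 scale (adjusted p = 0.00225, lost without SHP099 mouse 3). Against N2 alone the difference was 1.10 and did not pass (adjusted p = 0.0877). With SHP099+SX682 the effects on Tmsb10 differed by 1.15 ± 0.19 (adjusted p = 0.00628, lost without SHP099+SX682 mouse 1 or vehicle mouse 1), with 2113, 1585 and 2310 CPM in N4. Against N2 alone this difference with SHP099+SX682 was 1.61 (adjusted p = 0.000557).

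For Lcn2, Ngp, Stfa1 and Stfa2, levels fell in the other neutrophils with SHP099+SX682, and no change passed within N4. With SHP099+SX682, Lcn2 stood at 7057, 5997 and 4458 CPM in vehicle N4 and 3384, 4826 and 3494 CPM in treated N4, a change within the state of -0.65 that did not pass. In the other neutrophils it stood at 996, 751 and 526 CPM against 159, 153 and 223 CPM, and the effects differed by 1.53 ± 0.31 (adjusted p = 0.0287), lost in 5 leave-out fits. Ngp stood at 2769, 2057 and 2125 CPM in vehicle N4 and 380.1, 623 and 444 CPM in treated N4, which did not overlap, but its change of -2.29 did not pass (adjusted p = 0.0846). Its effects differed by 3.61, those of Stfa1 by 4.05 and of Stfa2 by 4.36, all against levels of 0.756 to 5.29 CPM in the treated other neutrophils. The calls of Ngp and Stfa1 were lost in 4 leave-out fits each and that of Stfa2 in 5. With thinned cells Ngp and Stfa1 lost their calls, while Lcn2 and Stfa2 kept theirs. DESeq2 called none of Lcn2, Ngp, Stfa1 and Stfa2. Against N2 alone, the nearest state, the difference was 1.55 for Lcn2, 2.20 for Ngp, 0.46 for Stfa1 and -1.86 for Stfa2, none of them called.

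State N6, which also held Lcn2 and Stfa1, made up 43.5, 26.3 and 20.4% of neutrophils in vehicle mice and 5.71, 8.01 and 11.2% in SHP099+SX682 mice. The part of this shift in the fall of the other neutrophils was not tested. Slc11a1, a metal transporter of phagosomes, had 3 of 726479 UMIs in SHP099 N4 and 15 of 381595 in vehicle N4, a ratio of 0.105 (exact 95% interval 0.0195 to 0.371, counting error only), while the other neutrophils stood at 193, 172 and 184 CPM against 167, 124 and 122 CPM.

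The targets of the drugs were thinly measured in N4. Ptpn11 stood at 33.3 ± 18.5 CPM in vehicle mice, 45.6 ± 10.5 in SHP099 mice, 32.0 ± 21.9 in SX682 mice and 50.7 ± 19.4 in SHP099+SX682 mice, on 9 to 34 UMIs a treatment, and was below the level for testing. Cxcr1 had 1 UMI in all. Cxcr2 stood at 109, 128 and 188 CPM in vehicle mice and 111, 97.4 and 109 CPM in SHP099+SX682 mice, and its change did not pass in any comparison with vehicle (-0.19 ± 0.27, 0.05 ± 0.30 and -0.37 ± 0.31 for SHP099, SX682 and the combination).

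Cxcl2, which encodes a ligand of CXCR2, stood at 34571, 31854 and 28690.5 CPM in vehicle mice and 19179, 16952 and 19520.3 CPM in SHP099 mice. The groups did not overlap, but the change of -0.76 ± 0.27 did not pass (adjusted p = 0.132). SX682 mice stood at 33788, 41126 and 21520.0 CPM and SHP099+SX682 mice at 34118, 28590.4 and 11395 CPM, both overlapping vehicle. Il1b, which encodes interleukin-1β, changed by -0.53 ± 0.19 with SHP099 (adjusted p = 0.121).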

How the data were processed

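Raw UMI counts per gene and cell and cluster numbers were used as deposited by the authors. Per the submitters' processing notes, bcl2fastq, Cell Ranger, STAR, Picard, HTSeq, DESeq2, bedtools and R 3.3.0 were used across the series, with build mm10, and no role is given for each. How doublets were removed and how clusters were made is not given in the sources used here, and no doublet caller was run. Bulk libraries were not used here. Mice came from the hashtag number in the cell names. Counts were summed per mouse over the N4 cells, and all 12 sums entered 1 fit (edgeR 4.0.16 with limma 3.58.1, R 4.3.3; TMM, filterByExpr, quasi-likelihood test). A fit with N4 and other neutrophils of each mouse, with mouse as block, tested differences. Shares and depth were compared by exact permutation (scipy 1.17.1). Alternatives included DESeq2 1.42.0, thinning to 500 UMIs and leaving out each mouse. Genes were named by fixed rules of size: the 15 highest and lowest ratios at 100 CPM or more, and up to 10 called genes each way and 4 of each list. The members, lists and rules were chosen with earlier results of these data known. On simulated counts for SHP099 against vehicle (2055 genes), 52.0% of changes of 1 and 96% of changes of 2 on the log2 scale were called. Of 159 calls there, 12 were false. For the difference from the other neutrophils (3565 genes), 24.7% and 74.5% were called, with 3 false of 97 calls. Changes were placed only in genes with a mean count above 10. Before the changes, each simulated gene had the same share of counts in every sum, and no difference between pools was simulated. Genes far lower in the other neutrophils than in N4, such as Ngp, Stfa1 and Stfa2, were therefore not covered. P-values measure the spread between mice of 1 pool a treatment, and the intervals of ratios cover counting error only.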

Additional observations from a re-analysis of the deposited data

Results flagged for a closer look

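The effect of a treatment differed between N4 and the other neutrophils of the same mice for 12 gene and treatment pairs (effect in N4 minus effect elsewhere, log2, edgeR with mouse as block). For SHP099 the differences were -3.50 for Slc11a1, 1.16 for Tmsb10, 2.97 for Ngp, 3.13 for Gm26917 and 4.49 for Cstdc5. Of these only Gm26917 was called against N2 alone. Ngp changed by -1.45 within N4, which did not pass, and went from a mean of 69.5 to 2.65 CPM in the other neutrophils. The Ngp difference was lost in 4 leave-out fits, with thinned cells and with DESeq2. N6 made up a mean of 30.1% of neutrophils in vehicle mice and 13.6% in SHP099 mice, and its part was not tested. The Gm26917 difference (adjusted p = 0.000562) was lost without SHP099 mouse 2, where N4 stood at 314 CPM against 64.8 and 99.8 CPM in the other SHP099 mice. Cstdc5 in N4 stood at 134, 82.5 and 1002 CPM in SHP099 mice, and its difference (adjusted p = 0.00855) was lost without SHP099 mouse 3 or vehicle mouse 1. Against N2 alone the Cstdc5 difference was 0.86.

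For SX682 the differences were 1.62 for Cd74 and 3.45 for Wfdc17 (adjusted p = 0.0144 for both). The Cd74 call was lost in 5 leave-out fits, with thinned cells and with DESeq2, while against N2 alone the Cd74 difference was 2.55 and was called. The highest sums of macrophage and of B cell markers in N4 were in SX682 mice, and their part was not tested. Wfdc17 stood at 110, 272 and 1449 CPM in SX682 N4 against 159, 313 and 104 CPM in vehicle N4, and in the other neutrophils at 598, 567 and 233 CPM against 3390.2, 1951 and 1665 CPM. Its call was lost in 4 leave-out fits, among them that without SX682 mouse 3.

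For SHP099+SX682 the differences were 1.15 for Tmsb10, 1.53 for Lcn2, 3.61 for Ngp, 4.05 for Stfa1 and 4.36 for Stfa2. No cause was tested for any of these differences.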

How the results depend on the processing

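Counts of called genes within N4 moved with the setting; the cause was not tested except where fewer cells, UMIs or genes were used. SHP099 against vehicle, 78 in the report, gave 43 with cells thinned to 500 UMIs, 22 with 21 cells per mouse and 45 with few-marker cells, and 18 to 98 leaving out a mouse. SX682 against vehicle, 1 in the report, gave 0 with DESeq2, few-marker cells, only the groups compared or free-RNA genes left out, 3 with equal cells, 19 with genes of 10 CPM or more and 25 with no filter (0 to 4 leaving out a mouse). SHP099+SX682 against vehicle, 18 in the report, gave 33 with DESeq2, 5 thinned and 5 with few-marker cells (0 to 25). SHP099+SX682 against SHP099, 2 in the report, gave 0 thinned or with few-marker cells, 1 with DESeq2, equal cells or free-RNA genes left out, 5 with only the groups compared, 32 at 10 CPM and 42 with no filter (1 to 9). SHP099+SX682 against SX682, 47 in the report, gave 12 thinned, 23 with equal cells, 12 with few-marker cells and 31 with only the groups compared (30 to 46). Differences from other neutrophils gave, for SHP099, 23 at 10 CPM and 3 against N2 (1 to 13 leaving out a mouse), for SX682, 0 with DESeq2, 8 at 10 CPM and 6 against N2 (0 to 6), and for the combination, 1 with DESeq2 and 11 at 10 CPM (0 to 8). The exact permutation p leaving out a mouse was 0.445 to 0.888 for the share and 0.000325 to 0.0216 for depth. Log2 changes in share were -0.55 to 0.21, -0.98 to -0.01 and -1.09 to -0.30 for SHP099, SX682 and the combination.

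Hashtag numbers did not pair the mice: correlations of residuals were -0.051 to 0.076 for same-numbered mice and -0.098 to 0.106 for others. With the number as a replicate block the counts were 84, 1, 19, 4 and 45 in the order above, and the exact permutation p was 0.748 for the share and 0.00694 for depth, the latter chosen after seeing the data. No called value changed sign when a mouse was left out or with DESeq2 or the block. Among cells with few marker UMIs Cd74 for SHP099+SX682 against SX682 went from -1.56 to 0.26, with 21 cells per mouse Cd74 for SHP099 against vehicle went from -2.05 to 0.47, and against N2 alone the Stfa2 difference went from 4.36 to -1.86, none called there. The uncalled share change for SHP099 crossed 0, as above. Low UMI sums limit what could be called, as for Ptpn11 and Cxcr1.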
